A study of Mus musculus with 4 samples.

Results

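The Chr4 KRAB-ZFP cluster (Chr4-cl) is a stretch of mouse chromosome 4 that carries many KRAB zinc finger protein genes and was removed in the Chr4-cl KO ES cells. It was examined here in the WT ES cells, where it is still present, at CpG sites in mm9 chr4:144973823-147227526, the DNA between the projected cuts of both guide RNAs. A CpG site was taken when it had at least 10 reads in both WT libraries, and methylation was the number of methylated reads divided by the number of reads. In all, 583 of the 628419 CpG sites that passed this rule in the genome lay in the cluster, against 612 with the minimum in WT serum alone and 708 in WT 2i + Vitamin C alone. The neighbouring 2.25 Mb on either side held 405 such sites to the left and 2246 to the right. The choice of sites used coverage and position only, not methylation. Sites whose lower coverage in the WT libraries was 10 to 12 reads numbered 62 and had a mean of 52.2% in serum and 25% in 2i + Vitamin C. The 76 sites just under the minimum, at 7 to 9 reads, had means of 24.1% and 21.1%.

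The assay was RRBS-seq. DNA is cut with MspI at the sequence CCGG and bisulfite turns unmethylated cytosines into uracil before sequencing. WT ES cells were grown in standard serum media with LIF, which keeps ES cells undifferentiated, or for 1 week in 2i media with vitamin C. The Chr4-cl KO cells were grown in the same way and differ from WT by the CRISPR/Cas9 deletion of the cluster. It was made with 2 guide RNAs and a single-stranded repair oligo. The ES cells came from mice of a mixed strain background that carry a Gt(ROSA)26Sor cre/ERT allele. There is 1 library per condition, from 1 WT and 1 KO line, so no difference has a replicate check and the tests below compare libraries, not conditions. Both KO and WT lines were grown from single picked clones, so what distinguishes a clone cannot be told apart from the deletion. Intervals cover counting error only, and a read that spans several CpGs is counted at each of them.

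KRAB-ZFPs are DNA-binding proteins that recognise sequences in transposable elements and recruit KAP1, through which heterochromatin and DNA methylation can be laid down. Their genes arose by repeated duplication and lie in tandem clusters full of near copies and pseudogenes. 2i media block MEK and GSK3 signalling and vitamin C supports the TET enzymes, and together they lower DNA methylation in most of the ES cell genome. DNA with many CpGs at gene starts usually stays unmethylated in both states.

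The guides set the borders of the region and are shown with the genomic PAM in capitals. gRNA1 matched mm9 chr4:144973820-144973839 on the minus strand with 20 of its 21 bases, all but the first. gRNA2 matched chr4:147227524-147227544 on the minus strand over all 21 bases, and each matched part was found at 1 place in the genome.

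gRNA1: gcaaaggggctcctcgatggaTGG
gRNA2: gtttatggccgtgctaaggtcAGG

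The single-stranded repair oligo of 117 bases joins both sides. Its first 56 bases matched chr4:144973766-144973821, its last 59 matched chr4:147227528-147227586, and the 2 bases in capitals lay between these matches. The projected deletion is 2253704 bp long.

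Repair oligo: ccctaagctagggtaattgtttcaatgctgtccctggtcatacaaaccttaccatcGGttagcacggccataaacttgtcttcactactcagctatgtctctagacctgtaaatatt

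Stretches of DNA from 4 related pseudogene starts are shown because they differed in methylation. The CpGs are in capitals, and all are written in the direction of Gm13158. The first 2 were highly methylated in serum and the last 2 were not, or only in part. They lie at chr4:146641555-146641713 (Gm13158), chr4:147120437-147120595 (Gm13148, minus strand), chr4:146561887-146562081 (Gm13146) and chr4:145427192-145427386 (Gm13238).

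Gm13158: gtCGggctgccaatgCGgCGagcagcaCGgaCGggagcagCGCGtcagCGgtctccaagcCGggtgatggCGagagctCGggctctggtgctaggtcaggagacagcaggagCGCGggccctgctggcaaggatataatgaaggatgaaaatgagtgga
Gm13148: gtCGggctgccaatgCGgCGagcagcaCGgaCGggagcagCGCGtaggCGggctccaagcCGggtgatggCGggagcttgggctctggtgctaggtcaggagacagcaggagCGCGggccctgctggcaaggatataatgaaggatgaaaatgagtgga
Gm13146: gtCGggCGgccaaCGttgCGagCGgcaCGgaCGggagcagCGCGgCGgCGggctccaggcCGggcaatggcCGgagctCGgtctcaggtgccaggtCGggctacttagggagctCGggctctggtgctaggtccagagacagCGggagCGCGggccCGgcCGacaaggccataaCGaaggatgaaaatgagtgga
Gm13238: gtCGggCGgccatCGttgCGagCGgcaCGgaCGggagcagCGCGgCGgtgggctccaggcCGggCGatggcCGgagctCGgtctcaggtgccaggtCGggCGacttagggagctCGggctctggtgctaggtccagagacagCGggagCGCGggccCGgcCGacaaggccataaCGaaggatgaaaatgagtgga

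A pair of near-identical stretches that kept most of their methylation in 2i + Vitamin C is shown next, again with CpGs in capitals. They lie at chr4:145688747-145688876, within the lincRNA gene Gm17565, and at chr4:146598992-146599121 on the minus strand, upstream of Gm13147.

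Gm17565 run: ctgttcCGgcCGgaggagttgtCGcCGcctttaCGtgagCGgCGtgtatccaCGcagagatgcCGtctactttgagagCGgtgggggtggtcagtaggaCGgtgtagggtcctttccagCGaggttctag
Gm13147 run: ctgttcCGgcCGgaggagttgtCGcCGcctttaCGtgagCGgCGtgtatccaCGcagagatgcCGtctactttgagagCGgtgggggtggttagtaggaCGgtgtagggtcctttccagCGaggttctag

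The sites of the cluster stood for a small part of its DNA. The region holds 15786 CpGs, 3.69% of which were measured, against 2.32% in the left flank and 6.34% in the right flank, and 200 kb of it are unknown bases in mm9. It has 7.69 CpGs per kb, close to the 7.75 of the left flank and below the 15.7 of the right flank. Of 2354 possible read starts at MspI sites in the cluster, taken as the first 50 bases after bisulfite conversion, 25.4% had a sequence found at 1 place in the genome. The same share was 67.0% in the left flank, 96.7% in the right flank and 78.6% in the genome. At 498 of the 583 sites (85.4%), the DNA within 50 bp on either side had a near copy of at least 95% identity elsewhere in mm9, against 23.7% of sites in the left and 1.38% in the right flank. Reads from such copies could be assigned to the wrong place, so levels at those sites may be mixtures of copies.

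Methylation of the cluster in WT cells was split between nearly unmethylated and nearly fully methylated sites in serum, and was lower at the methylated sites in 2i + Vitamin C. Mean methylation over the 583 sites was 35.1% in serum and 21.9% in 2i + Vitamin C, with medians of 6.52% and 3.20%. With reads pooled over sites, methylation was 22.7% of 81185 reads in serum and 14% of 100493 reads in 2i + Vitamin C. In serum 320 sites were under 10% and 177 were at 80% or more. The mean fell by 13.2 percentage points in the cluster and by 20.9 points in both flanks together, from 37.8% to 17.0%. The left flank went from 44.8% to 26.9% and the right flank from 36.6% to 15.2%. With 1 site per run of neighbouring sites, a weighting chosen after seeing the data, the mean fell by 25.9 points in the cluster and by 33.0 points in the flanks.

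By Fisher's exact test per site with Benjamini-Hochberg adjustment over the genome, at adjusted p under 0.05 and a difference of at least 20 points, 121 of the 583 sites (20.8%) were called lower in 2i + Vitamin C. The background was 31.8% of the sites tested in the genome, and 39.1% of the flank sites were called lower. None of the cluster sites was called higher, against 0.144% in the genome, while 25 were higher at an unadjusted p under 0.05. By adjusted p alone, without the minimum difference, 18 were higher and 205 lower. The largest gain was 27.9 points, at chr4:146845216, from 58.3% of 12 reads to 86.2% of 80 reads (adjusted p = 0.0798, Fisher's exact test). KO serum, which lacks the cluster, had 55 reads at this row, 54 of them methylated, so the levels there may not be those of the cluster. The largest loss was 83.3 points, at chr4:147026059 in an intron of 2610305D13Rik, from 100% of 10 reads to 16.7% of 24 reads (adjusted p = 4.01e-05, Fisher's exact test).

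**Figure D1:**
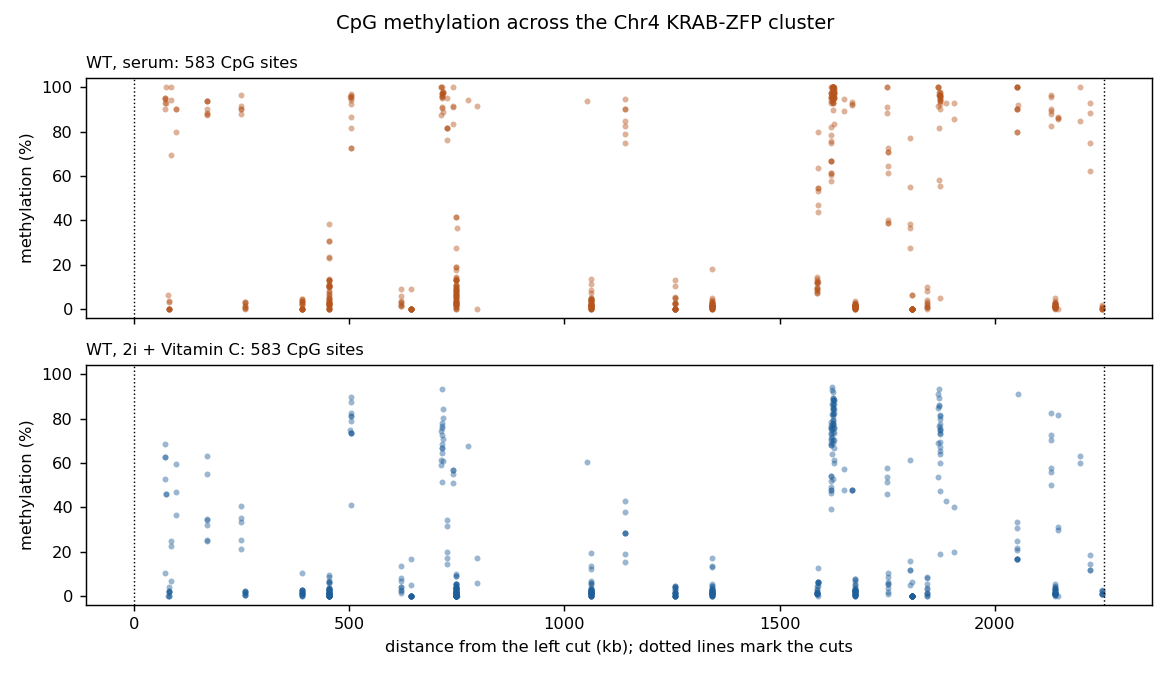
Methylation (y axis, %) of the 583 CpG sites of the cluster against their distance from the left cut (x axis, kb), in WT serum above and WT 2i + Vitamin C below, each point being 1 site. Sites stood in narrow groups near 0% or near 100% in serum, and in 2i + Vitamin C the methylated groups spread over the range from 0% to over 90%.

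The sites fell into 67 runs, in which neighbouring sites were at most 200 bp apart. In serum 16 runs had a mean under 10%, 42 were at 80% or more and 9 were in between. In 2i + Vitamin C 19 runs were under 10%, 6 were at 80% or more and 42 were in between. Sites of a run resembled each other, with a median SD within runs of 3.65 points in serum and 5.30 in 2i + Vitamin C (45 runs of at least 3 sites), while the SD between run means was 38.5 and 30.5 points. The median run thus varied less among its sites than run means varied between runs. The largest SD within a run was 32.8 points in serum and 27.3 in 2i + Vitamin C. Runs of 2 sites were left out, such as chr4:145770846-145770981 with 0% and 91.7% in serum. Sites of a run can share reads, so part of their likeness is built in.

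The KRAB-ZFP genes themselves had few sites. Of 19 KRAB-ZFP genes of the cluster that were listed for this work, 17 were in the annotation, 2 had a site within 1 kb of a start site, 5 had a site in the gene body and 10 had none. The other 2 genes were not in the annotation and were not analysed here. Of 52 possible MspI read starts within 1 kb of the start sites of these genes, 25 had a unique sequence. The sites near starts lay mostly at pseudogenes, with 362 of 378 promoter sites of the cluster. Those 362 sites had means of 10.6% in serum and 4.60% in 2i + Vitamin C.

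Zfp933, a KRAB-ZFP gene near the right cut, was the gene of the list with the most promoter sites. Its 7 sites, from chr4:147222521 to chr4:147222652, lay between 0% and 1.87% in serum and between 0.787% and 2.62% in 2i + Vitamin C, with 107 to 126 reads in serum and 126 to 191 in 2i + Vitamin C. The start of Zfp933 was thus close to unmethylated in both WT libraries. The single promoter site of Gm13251, another KRAB-ZFP gene of the list, was methylated. It had 94.1% of 51 reads in serum and 67.6% of 108 reads in 2i + Vitamin C (adjusted p = 5.36e-04, Fisher's exact test). The stretch around it was 81.0% identical to that of the Zfp933 start over the aligned bases. Sites in the bodies of 3 other listed genes were methylated in serum and differed in 2i + Vitamin C. The 10 sites in 2610305D13Rik went from 92.2% to 28.9%, and 9 of them were called lower. The 17 sites in Gm13247 went from 95.6% to 71.0% with 9 called lower, and the 11 sites in Gm13235 from 89.2% to 76.1% with 2 called lower. Among sites of the genome at 80% or more in serum, 75.2% were called lower.

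The pseudogene starts that stayed unmethylated belonged mainly to a pair of sequence families. Families were made by linking runs with at least 80% identity over at least 150 bp, directly or through other runs. The larger one holds 7 runs with 157 sites at Smarca5-ps, Gm13231, Gm13034, Gm13140, Gm13135 and Gm13136, with 93.3% to 97.1% identity between linked runs. Smarca5-ps is named after Smarca5, which encodes a chromatin remodelling ATPase. Run means lay between 1.27% and 4.73% in serum and between 1.37% and 3.78% in 2i + Vitamin C. At Gm13135, 34 sites had a mean of 1.27% in serum and 2.36% in 2i + Vitamin C, and the site at chr4:146649897 had 0 of 258 reads methylated in serum, for which the Wilson interval reached up to 1.47%. The other family has 4 runs with 55 sites at Gm13243, Gm13240, Gm13168 and Vmn2r-ps19, and its run means lay between 1.66% and 3.56% in serum and between 1.67% and 5.34% in 2i + Vitamin C. Outside these families, 11 sites at Gm13233 had means of 0.826% and 1.95%, and 17 sites in a run nearest to Gm8178 had 0.735% and 0.368%. No site of either family was called different between the media. The 161 bases of the Gm13135 start at chr4:146650004-146650164 show how dense the CpGs, in capitals, are in such a start.

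Gm13135: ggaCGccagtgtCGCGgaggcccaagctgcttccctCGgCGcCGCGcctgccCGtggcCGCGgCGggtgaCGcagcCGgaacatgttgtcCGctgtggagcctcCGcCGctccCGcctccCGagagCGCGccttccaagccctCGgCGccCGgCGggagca

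A further family of 8 runs with 138 sites, to which the first 4 printed stretches belong, was not uniform. In serum the runs at Gm13223, Gm13234, Gm13036, Gm13158 and Gm13148 had means of 93.2%, 91.4%, 93.7%, 92.8% and 86.4%. The runs at Gm13238 and Gm13241 had means of 8.24% and 9.08%, and the run at Gm13146 had 25.8%. In 2i + Vitamin C the 3 low runs were at 2.10%, 2.23% and 3.38%, and the 5 high runs between 28.8% and 60.6%. The 3 low runs lay in CpG-rich DNA, with means of 56.7, 53.7 and 45.9 CpGs within 250 bp on either side of a site, against 12 to 17 in the high runs. The difference between these groups was not tested, since the runs were told apart by their levels. Among the sites of Gm13238 and Gm13241, the highest serum levels were 38.5% and 41.7%, and 4 sites of Gm13238 were called lower in 2i + Vitamin C.

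The sequence differed between these groups as well. The 159-base stretch of Gm13158 holds 13 CpGs and aligned without gaps to Gm13148 at 96.9% identity, with 12 CpGs. Its counterparts in Gm13146 and Gm13238 are 195 bases long, aligned at 70.8% and 70.3% identity including 36 gap positions, and hold 22 and 23 CpGs. At Gm13158 the site with the deepest coverage, chr4:146641633, had 682 methylated of 736 reads (92.7%, Wilson interval 90.5 to 94.3) in serum and 534 of 1113 (48.0%, 45.1 to 50.9) in 2i + Vitamin C. This loss was called at adjusted p = 4.57e-96 by Fisher's exact test. At Gm13238 the deepest site in serum had 8 methylated of 382 reads (2.09%) in serum and 12 of 470 (2.55%) in 2i + Vitamin C, which was not called.

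Within single runs of this family the level changed over short distances. At Gm13146 the 14 sites up to chr4:146561947 lay between 7.07% and 14.4% in serum, with 362 to 369 reads. The 7 sites from chr4:146561958 to chr4:146562037 lay between 43.8% and 80%, with 10 to 16 reads, and these 7 were called lower in 2i + Vitamin C. The step coincided with this drop in coverage, and whether both parts come from the same DNA molecules was not tested. At Gm13223, 3 sites went from 90%, 95% and 95% of 20 reads each in serum to 62.9%, 68.6% and 62.9% of 35 reads in 2i + Vitamin C. The other site of that run, chr4:145045733, went from 171 methylated of 184 reads (92.9%) to 32 of 309 (10.4%). Sites of this run that were alike in serum thus ended at different levels in 2i + Vitamin C, at different coverage.

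**Figure D2:**
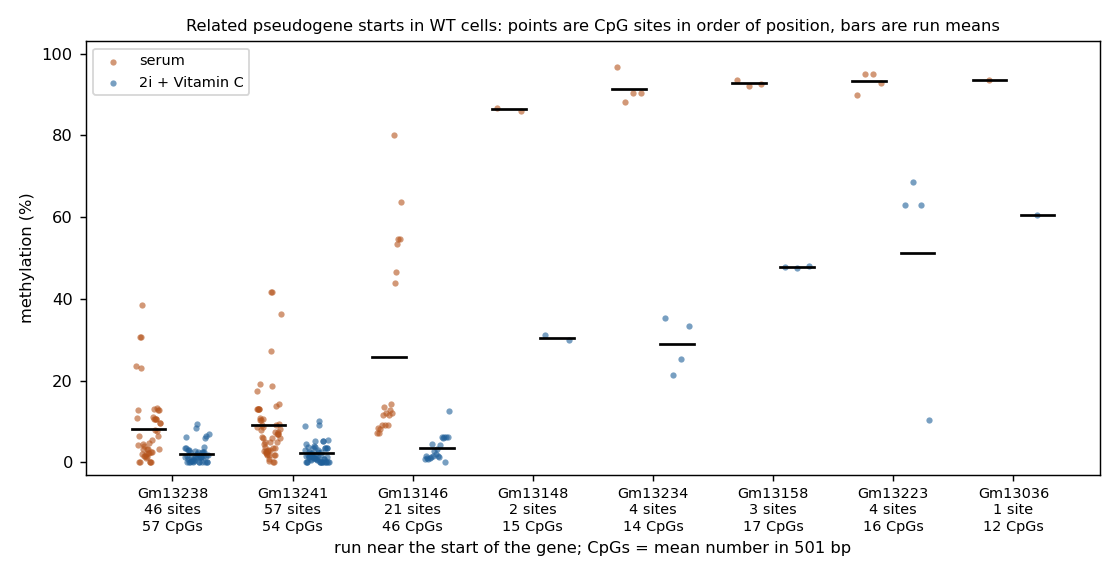
Methylation (y axis, %) of each CpG site in the 8 runs of related pseudogene starts (x axis, with the number of sites and the mean number of CpGs within 250 bp), in WT serum and WT 2i + Vitamin C, with black bars at run means. The 3 runs on the left, in CpG-rich DNA, had serum means from 8.24% to 25.8%, and the 5 on the right had serum means from 86.4% to 93.7% and 2i + Vitamin C means from 28.8% to 60.6%.

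Sites that were methylated in serum had a higher mean in 2i + Vitamin C in the cluster than in the right flank, a difference given as a description, since sites of 1 library are not replicates. The 177 sites at 80% or more in serum went from a mean of 93.7% to 61.1%, with a median of 68.1% in 2i + Vitamin C, and 97 of them (54.8%) were called lower. In the left flank 149 such sites went from 92.1% to 60.6% and 53.0% were called lower, values close to those of the cluster. In the right flank 534 sites went from 89.9% to 40.6% and 89.3% were called lower. In the whole genome such sites had a median of 48.6% in 2i + Vitamin C, and 75.2% of 169352 were called lower. The order was the same with 1 site per run, with means of 56.4% in the cluster (46 sites), 51.2% in the left flank (57 sites) and 40.3% in the right flank (223 sites). It was also the same at sites without a near copy in the genome, with means of 56.6%, 54.2% and 40.7% at 39, 92 and 524 sites. The cluster and the left flank lay close together in each case.

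The level left in 2i + Vitamin C differed by CpG density, given as a description. At methylated sites with fewer than 10 CpGs within 250 bp, the mean in 2i + Vitamin C was 46.7% in the cluster (18 sites), 55.1% in the left flank (60 sites) and 43.1% in the right flank (162 sites). At 10 to 19 CpGs it was 54.6% in the cluster (90 sites), 63.5% in the left flank (70 sites) and 39.7% in the right flank (332 sites). At 20 CpGs or more it was 73.3% in the cluster (69 sites in 11 runs), 67.1% in the left flank (19 sites in 4 runs) and 37.6% in the right flank (40 sites in 15 runs). The mean was thus higher in the denser classes in the cluster and the left flank and lower in the right flank. The cluster lay below the left flank in the lower 2 of these 3 classes. The level also differed by near copies. In the cluster it was 69.1% at 92 sites with one outside the cluster, 48.9% at 46 with one inside only and 56.6% at 39 with none. With an outside copy and with none it was 70.9% and 54.2% in the left flank, and 31.1% and 40.7% in the right flank. Density and near copies were not told apart.

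**Figure D3:**
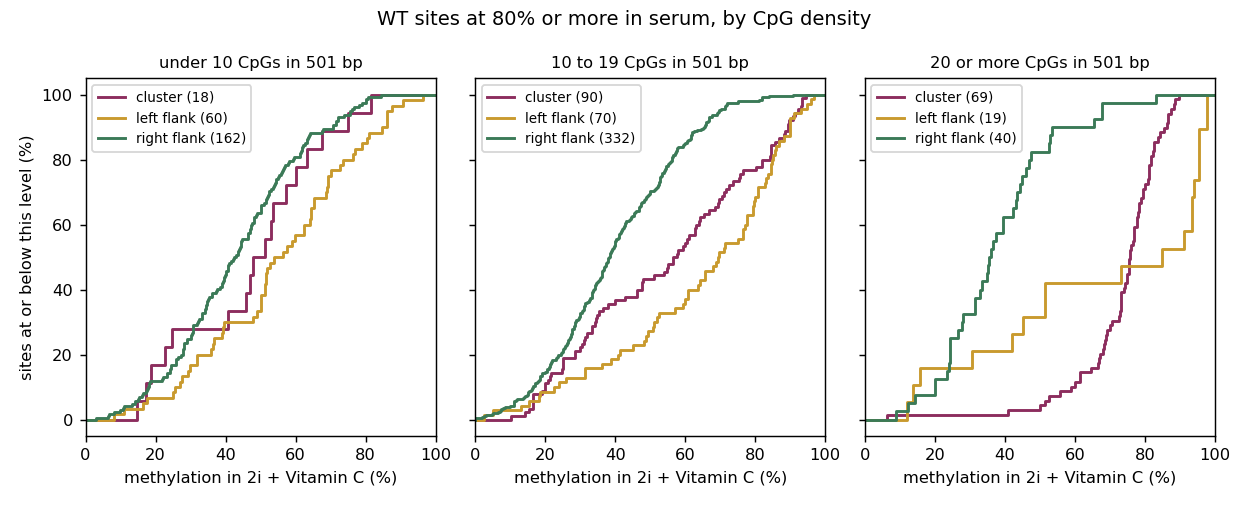
Share of sites (y axis, %) at or below each methylation level in WT 2i + Vitamin C (x axis, %), for sites at 80% or more in WT serum, in 3 panels by the number of CpGs within 250 bp, with the number of sites in brackets. In the right panel most of the 69 cluster sites lie between 60% and 90%, and most of the 40 sites of the right flank lie under 50%.

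The retained methylation was concentrated in 4 stretches. Of the 81 cluster sites that were at 80% or more in serum and still at 70% or more in 2i + Vitamin C, 76 lay in chr4:145475894-145477713, chr4:145688215-145691249, chr4:146593398-146600630 and chr4:146841227-146847302. They were picked by these levels, so the numbers describe them. The first lies in the gene Gm13235, the next in Gm13247, the one after upstream of Gm13147 inside the lincRNA gene Gm16889, and the last in Gm16889. The stretch upstream of Gm13147 was the longest of the 4, with 63 sites in 7.23 kb that went from 91.8% to 74.4%, of which 19 were called lower. The other methylated sites of the cluster, 76 in all, had a median of 39.0% in 2i + Vitamin C, a value lowered by the choice of the 4 stretches. These 4 stretches also held 64 of the 69 dense methylated sites. Near copies outside the cluster were found for 55 of the 63 sites upstream of Gm13147, 14 of 17 in Gm13247, 5 of 11 in Gm13235 and 9 of 25 in Gm16889. The last stretch includes the run chr4:146845216-146845327, where KO serum had 274 reads against 246 in WT serum.

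The stretches in Gm13247 and upstream of Gm13147 are related in sequence, with 4 pairs of runs that were 80.8% to 99.6% identical. The printed pair is 99.2% identical over 130 bases, with 12 CpGs in each. The 8 sites of the Gm17565 stretch had means of 95.7% in serum and 69.4% in 2i + Vitamin C, and the 8 in the Gm13147 stretch 94.7% and 76.4%. At chr4:145688757, 176 of 185 reads (95.1%) were methylated in serum and 85 of 124 (68.5%) in 2i + Vitamin C (adjusted p = 3.52e-09, Fisher's exact test). At chr4:146599001, in the related run, 181 of 202 reads (89.6%) were methylated in serum and 67 of 127 (52.8%) in 2i + Vitamin C (adjusted p = 1.12e-12, Fisher's exact test). At these values both runs lost part of their methylation and kept most of it. Their sites also had near copies outside the cluster, a median of 16 in the Gm17565 run and 15 in the Gm13147 run. Reads of stretches this alike could be assigned to either, so both runs may not be separate observations. In another run of the same stretch upstream of Gm13147, the site chr4:146596089 had 89 of 92 reads (96.7%) methylated in serum and 137 of 145 (94.5%) in 2i + Vitamin C, and no difference was called.

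The run at chr4:146845216-146845327 in Gm16889 had means of 86.2% in serum and 86.3% in 2i + Vitamin C at 5 sites. The near-equal means rest on chr4:146845216, which had 12 reads in serum and went from 58.3% to 86.2%. The other 4 sites had lower values in 2i + Vitamin C, by 3.27 to 12.3 points, and none of them was called. Sequences like this run were found at a median of 1259 places outside the cluster. In KO serum, which lacks the cluster, the 6 rows there had 274 reads, against 246 in WT serum. In 2i + Vitamin C KO cells had 30 reads there and WT cells 502. The serum level of this run may thus not be that of the cluster, and the part of reads from elsewhere was not tested. A single site in an intron of 2610305D13Rik, chr4:147028690, had 47 of 51 reads (92.2%) methylated in serum and 63 of 69 (91.3%) in 2i + Vitamin C. Runs of the same family went to 42.4% at 5 sites near Gm13228 and to 52.1% at 4 sites in Gm16889. The 10 runs with the highest level in 2i + Vitamin C held 62 sites and lay between 75.9% and 91.3%.

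The 10 runs with the largest loss held 35 sites, lost 56.4 to 74.1 points and had 4.5 to 18.7 CpGs within 250 bp. Near Rps19-ps3, a pseudogene of a ribosomal protein, 2 sites went from 90.7% to 16.6%, with 93 of 100 reads methylated in serum and 7 of 48 in 2i + Vitamin C at chr4:147195115 (adjusted p = 1.76e-20, Fisher's exact test). At Gm13229, 2 sites went from 97.2% to 23.7%. Losses of this size were also seen at Gm13234 (91.4% to 28.8%), near Gm13228 (88.8% to 28.6%), upstream of Gm13247 (83.4% to 23.4%) and in Gm13152 (89.3% to 30%). A family of 3 runs upstream of Zfp600, in Gm16889 and in 2610305D13Rik, 98.3% to 99.3% identical, had serum means of 85.1%, 57.2% and 92.2% and 2i + Vitamin C means of 28.7%, 5.41% and 22.0%. All of these runs were low in 2i + Vitamin C while the printed retained pair, 99.2% identical over 130 bases, stayed high. The difference between these families was not tested.

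**Figure D4:**
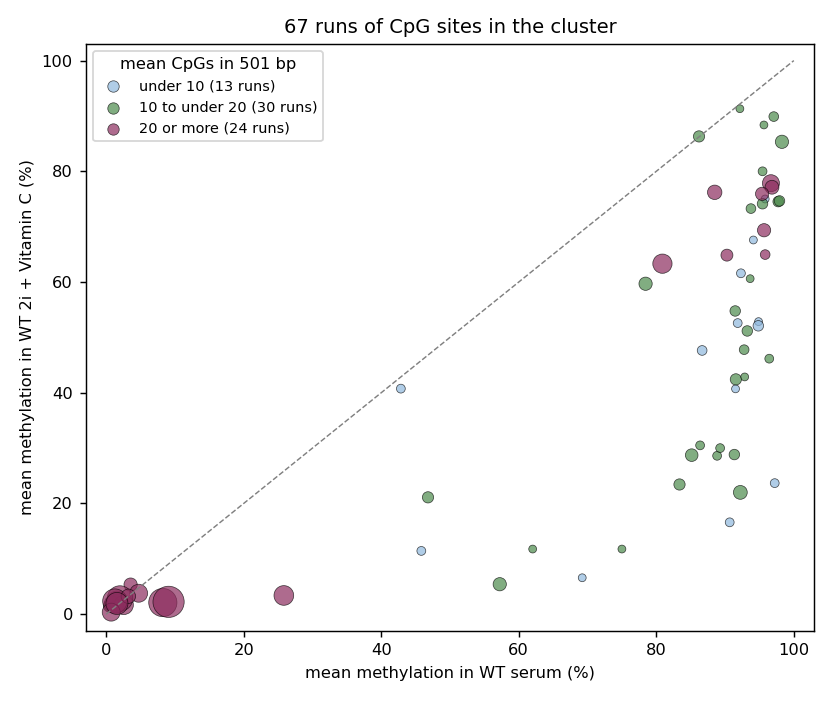
Mean methylation of the 67 runs of the cluster in WT serum (x axis, %) and WT 2i + Vitamin C (y axis, %), with the area of a point growing with its number of sites, the colour giving the mean number of CpGs within 250 bp, and the dashed line marking equal levels. CpG-rich runs lie at the lower left or, among the methylated runs, between 60% and 80% on the y axis, and runs with fewer CpGs that were above 50% in serum reach down to 5.41%.

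Chr4-cl KO cells served as the check of the deletion. In serum 820 reads at 296 CpG rows of the KO library lay between the cuts, against 85282 reads at 2256 rows in WT, which is 0.962%. In 2i + Vitamin C it was 1467 reads at 504 rows against 105120 reads at 1638 rows, or 1.40%. Scaled by the depth of the rest of the genome, these are 0.762% and 2.96% of the WT reads. At rows with at least 10 WT reads the KO reads were 0.740% and 0.375% of the WT reads. The libraries labelled KO thus lacked nearly all reads of the region in both media. In 250-kb bins the depth-scaled share had a median of 0.537% in serum and 2.77% in 2i + Vitamin C inside, and medians between 88.6% and 136% in the flanks. Inside, 1 bin reached 84.7% in 2i + Vitamin C, with 85 KO reads against 213 WT reads, and the 3.70 kb next to the right cut held 1 KO read against 3 WT reads in serum.

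**Figure D5:**
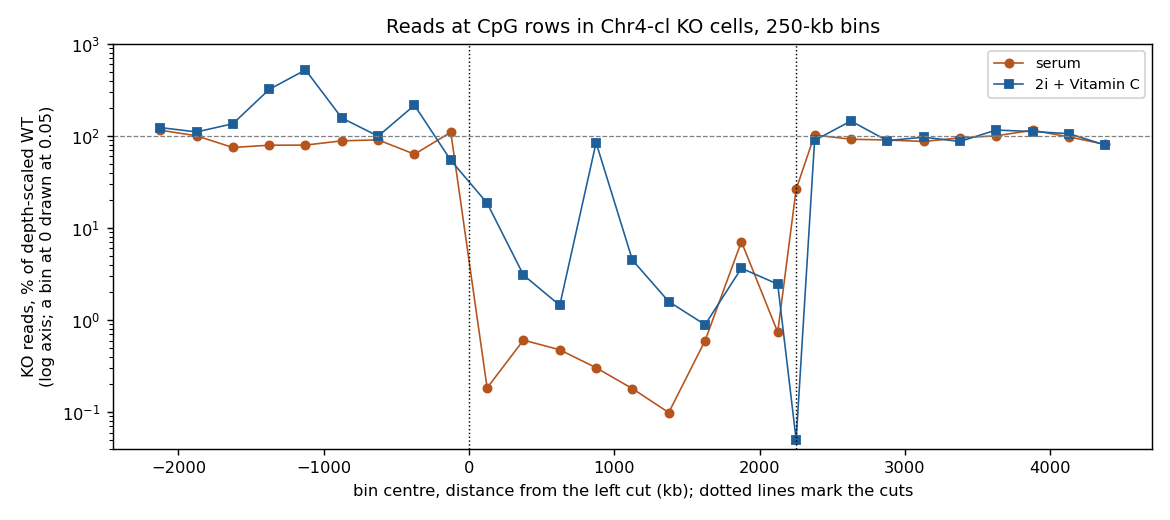
Reads at CpG rows in the KO libraries as a percentage of depth-scaled WT reads (y axis, log scale) in 250-kb bins against the distance of the bin centre from the left cut (x axis, kb), with dotted lines at the cuts. The flank bins lie between 54.5% and 523% and the serum bins inside the cluster mostly under 1%, with the last, short bin inside at 26.4%.

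The reads left in KO cells were unevenly placed. The 10 sites with the most KO reads held 40.4% of them in serum and 28.1% in 2i + Vitamin C, and the median row had 1 read in both. KO reads formed 159 runs, 53 in serum and 126 in 2i + Vitamin C, 20 of which were in both. Rows with a near copy outside the cluster held 68.5% of the KO reads in serum and 65.8% in 2i + Vitamin C, against 35.0% and 28.4% of the WT reads. Rows with no near copy held 12.2% of the KO reads in serum and 26.1% in 2i + Vitamin C, against 14% and 13% of the WT reads. A few rows made up most of these. In 2i + Vitamin C 284 of the 383 reads lay at chr4:145014796 and chr4:145014952, and in serum 55 of the 100 lay at chr4:146845216. That serum row lies in the run chr4:146845216-146845327, with a median of 1259 near copies outside the cluster. A row counted as having no near copy can thus lie beside DNA with many. At least 10 reads were reached at 9 rows in serum and 12 rows in 2i + Vitamin C.

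By position from the left cut, the first of these rows were chr4:145014796 and chr4:145014952 in Gm13227, 41.0 kb inside. In KO 2i + Vitamin C they had 117 methylated of 141 reads and 0 of 143. WT serum had 2 reads at each, WT 2i + Vitamin C had 2 at the first and none at the second, and KO serum had none. No near copy of these rows was found in mm9. The stretch chr4:145014786-145014963 is shown with its MspI site in capitals.

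KO 2i run: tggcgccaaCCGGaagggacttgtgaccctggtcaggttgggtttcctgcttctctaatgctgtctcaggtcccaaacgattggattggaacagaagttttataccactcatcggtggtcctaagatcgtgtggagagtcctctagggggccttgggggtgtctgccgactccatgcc

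The next 10 rows lay at chr4:145230711-145230901, upstream of Gm13231, with 15 reads at the first and 16 at each of the others in KO 2i + Vitamin C. Their best copy outside, up to 100% identical, lies at the Smarca5 gene on chromosome 8. KO serum had at most 2 reads at this run. At chr4:145230733 0 of 16 KO reads were methylated, and in WT 2i + Vitamin C 6 of 399. A run with 175 KO reads in 2i + Vitamin C at Gm13034, chr4:146035070-146035227, had its best copy, 99% identical, at Smarca5 as well.

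In serum 4 rows at chr4:146775925, chr4:146775938, chr4:146776018 and chr4:146776034 had 11, 11, 14 and 14 KO reads, of which 11, 11, 13 and 14 were methylated. WT serum had 7, 13, 20 and 13 reads there, of which 2, 5, 11 and 10 were methylated. The other 5 rows were chr4:146845216, chr4:146845251, chr4:146845257, chr4:146845262 and chr4:146845293, with 55, 56, 55, 51 and 56 KO reads in serum. WT serum had 12, 60, 55, 8 and 60 reads at these rows, close to the KO values at 3 of the 5. This is the run with a median of 1259 near copies outside the cluster, up to 100% identical, and it had at most 9 KO reads in 2i + Vitamin C. At all rows with a near copy outside, KO reads were 1.88% of WT reads in serum and 3.23% in 2i + Vitamin C. These shares were not scaled by depth. The part of reads from such copies in the WT levels of single sites was not tested. The run is shown with its MspI sites in capitals.

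KO repeat run: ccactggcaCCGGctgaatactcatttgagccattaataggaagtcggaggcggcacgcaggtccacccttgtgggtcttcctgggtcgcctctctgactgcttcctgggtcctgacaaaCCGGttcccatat

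The remaining runs among the 10 with the most KO reads held 56 to 74 of them over both media. They lay at chr4:147103183-147103903 near Gm13137, chr4:145477374-145477713 in Gm13235, chr4:145688757-145688866 in Gm17565, chr4:145426914-145427096 at Gm13238, chr4:145877992-145878149 near Rex2 and chr4:146598756-146598974 near Gm13147. All but Gm13238 had near copies outside the cluster, with a best identity of 98.0% to 100%. At the run near Rex2 the 56 KO reads were from 2i + Vitamin C, where WT had 2 reads. KO reads inside were mostly methylated where WT reads were: at the 177 sites at 80% or more in WT serum, 87.7% of 325 KO reads were methylated in serum (Wilson interval 83.7 to 90.8), against 94.3% of WT reads at the same sites. At the 320 sites under 10% in WT serum, 12.8% of 164 KO reads were methylated (8.53 to 18.8), against 2.69% of WT reads. These shares in 2i + Vitamin C were 58.6% of 133 reads and 4.46% of 202 reads.

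The CpG rows nearest to the cuts were sparse inside. At the left cut, the nearest WT row with at least 10 reads lay 8.93 kb outside, at chr4:144964894, with 90% of 10 reads methylated in WT serum and 10.9% of 46 reads in WT 2i + Vitamin C. KO serum had 90% of 10 reads at that row. Inside the left cut the nearest was chr4:145045669, 71.8 kb away, in both WT libraries. At the right cut, the nearest row outside was chr4:147228625, with 83.3% of 18 reads in WT serum and 37.5% of 48 reads in WT 2i + Vitamin C, and KO serum had 80% of 5 reads there. The nearest inside was chr4:147222652 at Zfp933, with 0 of 108 reads and 2.36% of 127 reads methylated. Of the KO rows with 10 reads inside the cluster, the one nearest to a cut lay 41.0 kb from the left cut.

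In the flanks, where the DNA is present in both genotypes, KO and WT cells differed in opposite directions in the media. In serum the mean over 2458 flank sites was 36.5% in WT cells and 41.7% in KO cells, a difference of 5.12 points. By the same call rule 90 sites (3.66%) were higher in KO cells, against a background of 1.82% in the genome. Of these, 89 lay in the right flank (4.31% of 2065 sites) and 1 in the left flank (0.254% of 393 sites). None was called lower (background 0.115%), while 14 were lower at an unadjusted p under 0.05. The mean in 2i + Vitamin C over 1850 sites was 13.5% for WT and 11.6% for KO cells, and 6 sites were lower and 2 higher, against backgrounds of 0.361% and 0.0897%. Over all sites tested in the genome the mean difference was 3.36 points in serum and -1.73 points in 2i + Vitamin C. Within 250 kb of a cut, 3 of 304 sites were called higher in serum (0.987%).

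Only 2 flank sites were called in both media. At chr4:147310990, upstream of Plod1, which encodes a lysyl hydroxylase, serum had 0% of 26 reads in WT and 26.3% of 57 reads in KO cells, and 2i + Vitamin C had 28.3% of 53 reads and 0% of 34 reads. The adjusted p in Fisher's exact test was 0.0472 in serum and 0.033 in 2i + Vitamin C. At chr4:147965755 in Srm, the gene of spermidine synthase, serum had 1.30% of 230 reads in WT and 29.9% of 244 reads in KO cells, and 2i + Vitamin C had 23.9% of 259 reads and 0.781% of 128 reads. Both sites were thus higher in KO cells in serum and lower in 2i + Vitamin C.

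All 4 libraries had between 42672691 and 90649194 reads summed over CpG rows and 591877 to 816807 sites with at least 10 reads, at a median coverage of 25 to 50 reads. The KO 2i + Vitamin C library was the shallowest. Promoters of ES cell marker genes were checked where they had sites. Pou5f1, which encodes OCT4, lay between 0% and 3.95% in all 4 libraries, Zfp42 at 2.94% and 1.66% in WT serum and 2i + Vitamin C, and Esrrb between 2.35% and 15.9%. Dppa3 went from 63.9% in WT serum to 10.1% in WT 2i + Vitamin C, and Nanog had no site with 10 reads.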

How the data were processed

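RRBS-seq libraries were made from MspI-digested, bisulfite-converted DNA from ES cells of either genotype in each medium. The authors trimmed 50 bp paired-end reads with Trim Galore and mapped them to mm9 with Bismark, whose versions and settings for reads with several places are not given in the sources used here. The deposited files hold, per CpG dyad, read counts (all and methylated) and the fraction of reads that were methylated. The files of WT serum and KO 2i + Vitamin C hold 2 tables joined end to end. Positions found in both tables (332 and 830 rows) were left out, and the second tables held 59 and 54 sites with at least 10 reads.

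The counts were used as deposited, with a minimum of 10 reads. Sites were compared across the genome by Fisher's exact test (numba 0.67.0, checked against scipy 1.17.1 and tested on simulated data) with Benjamini-Hochberg adjustment, and called at adjusted p under 0.05 and 20 percentage points. Intervals are Wilson or exact binomial at 95%. Near copies were searched with blastn 2.17.0 in mm9, and genes come from GENCODE vM1. A near copy had to match at least 95% of the 101 bp centred on the CpG without gaps. Sites without a near copy by this rule may still lie next to repeated DNA. A promoter site lay within 1 kb of a start site. Families were made by linking runs with at least 80% identity over at least 150 bp. Some runs of a family may thus be linked only through others. Depth-scaled KO reads are the KO to WT ratio inside the cluster divided by that of the rest of the genome.

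Genes were named when on the list of Chr4-cl KRAB-ZFP genes or annotated in the cluster with at least 3 sites. Runs were named from the 10 highest in 2i + Vitamin C, the 10 lowest in serum, the 10 with the largest loss and the 10 with the most KO reads. KO rows with 10 reads, sites nearest to the cuts and flank sites called in both media were also named. Other sites given are examples chosen after their values were seen. The cluster, the lists and the rules were chosen with earlier results of these data known. Alternatives were other coverage minimums and thresholds, 1 table only, pooled reads, thinned counts, 1-Mb flanks and, added after seeing the data, sites without a near copy and 1 site per run.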

Additional observations from a re-analysis of the deposited data

Results flagged for a closer look

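The difference between KO and WT cells at the flank sites had opposite signs in the media, with a mean of 5.12 percentage points in serum and -1.92 points in 2i + Vitamin C. The signs were the same over all sites tested in the genome, with 3.36 points in serum and -1.73 points in 2i + Vitamin C. With 1 library per condition, the difference between the media was not tested.

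In KO 2i + Vitamin C, the run from chr4:145014796 to chr4:145014952 inside the deleted DNA had up to 143 reads at a CpG, and 284 reads at both CpGs together, where WT 2i + Vitamin C had 2 reads. It had no near copy in mm9, and its cause was not tested.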

How the results depend on the processing

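No paired analysis was possible because each group has 1 library. The loss of mean methylation kept its sign, and was smaller in the cluster than in both flanks pooled, in all alternatives run on both. Against the left flank alone this did not hold throughout. At sites without a near copy the left flank changed by -16.0 points and the cluster by -16.7. In the cluster the change of -13.2 points became -12.3 with a minimum of 5 reads, -10.4 with 20 reads, -8.70 with pooled reads, -16.1 with the minimum in each library alone, -16.7 at sites without a near copy and -25.9 with 1 site per run (the last 2 chosen after seeing the data). In the flanks -20.9 became -21.2, -18.9, -17.4, -20.6, -20.6 and -33.0 under the same alternatives, and -20.5 within 1 Mb. The 121 cluster sites called lower became 205 by adjusted p alone (with 18 called higher), 20 of 85 sites without a near copy and 31 of 67 with 1 site per run, both from fewer sites. Flank calls between KO and WT were 90 in serum and became 33 within 1 Mb and 143 by adjusted p alone. In 2i + Vitamin C 8 became 4, 23 and, with a 10-point minimum, 14, and 4 with thinned counts. KO reads inside, 0.962% of WT in serum, became 0.740% at rows with 10 WT reads, 0.762% scaled by depth, 0.576% without the 10 top sites and 0.835% without near copies. In 2i + Vitamin C 1.40% became 0.375%, 2.96%, 1.01% and 2.80%, and 1.23% with the first table only. The cause of these shifts was not tested. Sites with 10 reads give wide intervals, so small differences at single sites were not detectable and larger ones could be missed. In simulated counts with 200 changed sites per comparison, losses of 20 points were called at 6% of changed sites between the WT libraries. For KO against WT it was 7% in serum and 3% in 2i + Vitamin C. Losses of 40 points were called at 38%, 36% and 16%. More sites were called in the data than were changed there, with 199660 called lower between the WT libraries. The adjusted threshold depends on how many sites differ, so these shares do not measure how many losses were missed in the data.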
